A study of Homo sapiens with 6 samples.

Results

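The translation factors described here are 47 genes of the cytosolic initiation and elongation machinery, out of 58735 genes listed in each library. They were taken by symbol from a named list. It held eIF1, eIF2, eIF2B, eIF3, eIF4, eIF5 and eIF6 genes and a pair of eIF2 alpha kinases. It also held the eIF4E-binding inhibitors EIF4EBP1 and EIF4EBP2 and 6 genes of elongation. Each symbol occurred on 1 row, and no measured value entered the choice. RNA was sequenced from MUM2B, a human cell line labelled as melanoma, in 3 libraries of cells with stable overexpression of LACTB and 3 libraries of cells that stably carried the empty vector. Both groups are the same line grown in the same serum-containing RPMI medium, and both hold an integrated vector, so the empty vector cells are not unmodified MUM2B. LACTB encodes a mitochondrial protein related to bacterial beta-lactamases. The sources used here give neither the promoter of the vector nor whether each group was 1 clone or a pool. The comparison asks which of these genes differ in mRNA level between LACTB cells and empty vector cells.

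Translation starts when eIF2 brings the initiator tRNA to the small ribosomal subunit, eIF3 holds that subunit ready, and the eIF4F complex (the cap-binding protein eIF4E, the scaffold eIF4G and the helicase eIF4A) recruits the mRNA by its cap. eIF1 guards the choice of start codon, eIF2B recharges eIF2 with GTP, and phosphorylation of eIF2 alpha by stress kinases blocks that recharging. The eIF4E-binding proteins hold eIF4E away from eIF4G unless the kinase mTORC1 phosphorylates them. In elongation eEF1A delivers charged tRNAs, the eEF1B subunits recharge eEF1A, and eEF2 moves the ribosome along. Many mRNAs of this machinery begin with a 5′ terminal oligopyrimidine tract, called TOP, a C followed by pyrimidines, through which mTORC1 and LARP1 control their translation.

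To show which members carry such a start, the 10 bases before and the 20 bases from the RefSeq start of the gene (GRCh38.p14, gene strand) were read for the members with a matching window. The 9 members whose start reads as a C followed by at least 4 pyrimidines are printed below with EEF1B2 and EEF1G, which are commonly counted among TOP genes and start with A in RefSeq. Capitals mark the unbroken pyrimidine run from the start.
EIF2A (chr3:150546777-150546806, plus strand): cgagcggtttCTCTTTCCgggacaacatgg
EIF3D (chr22:36529147-36529176, minus strand): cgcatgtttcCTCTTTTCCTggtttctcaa
EIF3F (chr11:7987327-7987356, plus strand): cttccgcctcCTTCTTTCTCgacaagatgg
EIF3K (chr19:38619178-38619207, plus strand): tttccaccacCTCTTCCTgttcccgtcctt
EIF3M (chr11:32583821-32583850, plus strand): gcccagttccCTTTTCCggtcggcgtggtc
EIF4A2 (chr3:186783567-186783596, plus strand): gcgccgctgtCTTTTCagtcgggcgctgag
EIF4B (chr12:53006446-53006475, plus strand): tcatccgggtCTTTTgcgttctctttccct
EEF1A1 (chr6:73521013-73521042, minus strand): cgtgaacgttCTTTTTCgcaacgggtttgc
EEF2 (chr19:3985444-3985473, minus strand): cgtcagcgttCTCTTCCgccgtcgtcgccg
EEF1B2 (chr2:206159599-206159628, plus strand): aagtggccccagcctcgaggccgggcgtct
EEF1G (chr11:62573872-62573901, minus strand): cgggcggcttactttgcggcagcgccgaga

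The libraries held 16978799 to 18395631 reads in genes, recovered from the deposited FPKM values (fragments per kilobase of exon, relative to a scaled library size). A gene with 2 kb of exon and 3 reads would be listed at 0.0827 to 0.0872 FPKM. LACTB stood at 173.9, 169.3 and 161.5 FPKM in the LACTB libraries, against 3.81, 3.39 and 4.71 FPKM in the empty vector libraries, so every library matched its label. Empty vector replicate 3 stood apart from the other libraries of its group: between libraries of one group the recovered reads differed by a chi-square of 1.97 to 11.2 per degree of freedom, with 10.8 and 11.2 for the pairs that include it, and mitochondrially encoded genes took 3.61% of its reads against 4.65% to 5.04% in LACTB cells and 5.54% and 5.62% in the other empty vector libraries. All 14 melanocyte lineage genes averaged under 1 FPKM, with OCA2, TRPM1 and S100B at 0 in every library and a sum of 1.90 to 2.35 FPKM in LACTB cells and 1.42 to 1.72 FPKM in empty vector cells, so the melanocyte markers give the melanoma label no support here. The 4 immune genes, 5 of the 7 epithelial genes and 5 of the 6 fibroblast and endothelial genes lay under 1 FPKM as well. The epithelial keratins KRT8 and KRT18 were present and lower in LACTB cells, the summed epithelial list standing at 304 to 311 FPKM in LACTB cells and 340 to 352 FPKM in empty vector cells. The endothelial cadherin CDH5 stood at 13.4, 14.2 and 14.2 FPKM in LACTB cells and 50.9, 51.6 and 46.9 FPKM in empty vector cells, and it made up nearly all of its list's sum. The part of these differences in the results below was not tested. Separate cultures are not stated for the replicates, so each p-value below reflects only how far these libraries spread, which may be technical.

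The translation factors moved in both directions and by small amounts. Of the 47 genes, 46 had a mean of at least 1 FPKM and were tested on log2(FPKM + 1) with limma, at a Benjamini-Hochberg adjusted p under 0.05 over all 11875 genes tested. In LACTB cells 12 of the members rose and 9 fell (21 of 46, 45.7%), and 25 did not pass. Over all tested genes 32.0% were called, 14.8% higher and 17.2% lower, against 26.1% and 19.6% of the 46 members. At or above the members' own median level of 51.4 FPKM, 8 rose and 4 fell of 23 members (52.2% called), and 111 rose and 221 fell of the 775 tested genes at that level (42.8% called). The shares called were thus not far apart at like level, and the members' calls held more rises than falls where those of all genes at that level held more falls. The median log2 fold change of the 46 was 0.02, against -0.01 over all tested genes, and the largest was 0.55 in size. The median size among the called members was 0.21, against 0.31 among all called genes. Groups did not overlap for 28 of the 46, with the LACTB libraries above for 15 and below for 13, where 22.3% and 25.1% of all tested genes do the same. FPKM is a relative measure. These values already stood on a median-of-ratios scale (factors 1.00), on which the typical gene is level between libraries. The library size behind them was 0.983 to 1.02 times the library's reads in genes. In these bulk cultures a change in RNA per cell and a change in the mixture of cells cannot be told apart.

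**Figure D1:**
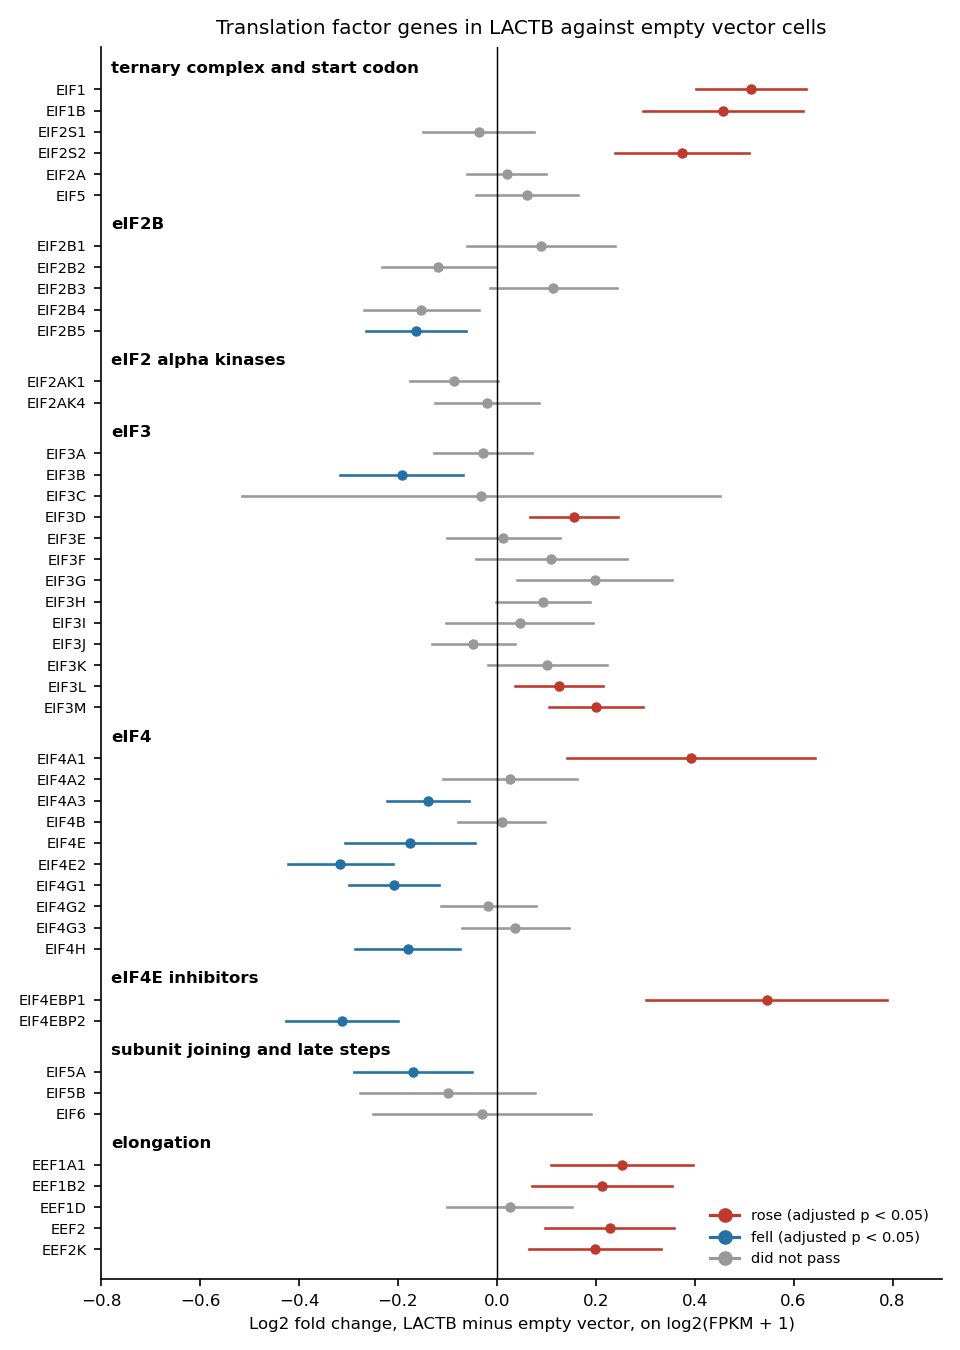
Log2 fold change (LACTB over empty vector, difference of mean log2(FPKM + 1)) of the 46 tested translation factors, grouped by role, with 95% confidence intervals from limma and colours for genes that rose, fell or were not called. Of the 12 risen genes 10 are in the start codon, eIF3 and elongation groups, 5 of the 9 fallen genes are in the eIF4 group, and every value lies between -0.32 and 0.55.

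Of the 6 tested genes of the start codon and the ternary complex 3 rose and 0 fell, where 14.8% of all tested genes rose and 17.2% fell. Their median log2 fold change was 0.22. EIF1, which keeps the scanning ribosome from settling on a wrong start codon (GRCh38 chromosome 17, 41688885 to 41692668), stood at 199.2, 203.2 and 203.0 FPKM in LACTB cells and 146.1, 143.8 and 133.5 FPKM in empty vector cells. The 3 LACTB libraries lay close to each other and all above the empty vector libraries. EIF1 rose 1.43-fold (log2 fold change 0.51, SE 0.047; limma, adjusted p = 0.000373), the smallest adjusted p of any member. EIF1B, its close paralogue on chromosome 3 (40309684 to 40312424), was expressed at a lower level, with 25.6, 26.4 and 25.0 FPKM in LACTB cells and 20.2, 18.7 and 16.6 FPKM in empty vector cells. It rose 1.39-fold (log2 fold change 0.46, SE 0.069; limma, adjusted p = 0.0031), and the ratio of EIF1B to EIF1 overlapped between the groups, at 0.127 ± 0.0035 in LACTB cells and 0.131 ± 0.0067 in empty vector cells (SD, n = 3 each). A ratio that overlaps does not show that the pair changed equally: the difference of log2 ratios was -0.04 with an SD between libraries of 0.060.

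The subunits of eIF2, which carries the initiator tRNA, did not move alike. EIF2S2, the beta subunit (chromosome 20, 34088298 to 34112332), had 122.8, 110.7 and 114.3 FPKM in LACTB cells and 90.3, 84.0 and 93.2 FPKM in empty vector cells. It rose 1.30-fold (log2 fold change 0.37, SE 0.058; limma, adjusted p = 0.0034). EIF2S1, the alpha subunit that the stress kinases phosphorylate, had 45.9, 44.3 and 43.1 FPKM in LACTB cells and 44.8, 44.1 and 48.0 FPKM in empty vector cells. The groups overlapped for EIF2S1, with a 95% confidence interval of -0.15 to 0.07 on the log2 scale. The ratio of EIF2S1 to EIF2S2 was lower in LACTB cells, at 0.384 ± 0.014, than in empty vector cells, at 0.512 ± 0.015 (SD, n = 3 each). The 3 LACTB ratios all lay below the 3 empty vector ratios (exact permutation test, two-sided p = 0.1, the smallest that 3 against 3 libraries allow; 0.143 adjusted over the 10 ratios tested). EIF2S3, the gamma subunit, is outside the 47 genes but on the list of further initiation factors, and it rose to 78.4 ± 3.5 FPKM in LACTB cells, against 65.2 ± 1.0 FPKM in empty vector cells (log2 fold change 0.26; limma, adjusted p = 0.0051). EIF2A, a separate initiator tRNA-binding protein despite its name, had a log2 fold change of 0.02, and EIF5, which triggers GTP hydrolysis on eIF2, one of 0.06; neither was called.

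The 5 subunits of eIF2B, the exchange factor that recharges eIF2, split by direction. Of them 1 was called, where 32.0% of all tested genes were. EIF2B5, the catalytic epsilon subunit (chromosome 3, 184135038 to 184146112), had 14.4, 14.5 and 14.6 FPKM in LACTB cells and 16.6, 15.6 and 16.9 FPKM in empty vector cells, and fell (log2 fold change -0.16, SE 0.043; limma, adjusted p = 0.0256). EIF2B4, the delta subunit, had 4.21, 4.25 and 4.47 FPKM in LACTB cells and 4.82, 4.78 and 5.11 FPKM in empty vector cells. EIF2B2, the beta subunit, had 5.64, 5.87 and 5.64 FPKM in LACTB cells and 6.12, 6.12 and 6.63 FPKM in empty vector cells. For both, every LACTB library lay below every empty vector library, and neither passed the threshold (limma, adjusted p = 0.0529 for EIF2B4 and 0.110 for EIF2B2). EIF2B1, the alpha subunit through which phosphorylated eIF2 is sensed, had 19.1, 18.1 and 16.4 FPKM in LACTB cells and 17.3, 15.8 and 17.1 FPKM in empty vector cells, with overlap. EIF2B3, the gamma subunit, had 12.9, 12.3 and 11.2 FPKM in LACTB cells and 11.2, 11.0 and 11.2 FPKM in empty vector cells, and was not called (limma, adjusted p = 0.157). Summed over the 5 subunits, the levels overlapped, at 52.3 to 56.2 FPKM in LACTB cells and 53.3 to 56.9 FPKM in empty vector cells. Of the kinases of eIF2 alpha on the list, EIF2AK1 (HRI, activated by haem shortage and mitochondrial stress) averaged 40.8 ± 1.15 FPKM in LACTB cells and 43.4 ± 0.41 FPKM in empty vector cells, and EIF2AK4 (GCN2, activated by amino acid shortage) 11.1 ± 0.48 FPKM in LACTB cells and 11.3 ± 0.12 FPKM in empty vector cells (SD, n = 3 each). Neither was called (limma, adjusted p = 0.125 for EIF2AK1 and 0.766 for EIF2AK4).

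Of 8 tested genes of the loop around eIF2 phosphorylation, outside the 47, 3 rose, 0 fell and 5 did not pass. Of all tested genes 14.8% rose and 17.2% fell. The 3 genes of the loop that rose changed by more than any member. PPP1R15A (GADD34), the phosphatase subunit that removes the phosphate from eIF2 alpha, stood at 119, 123 and 127 FPKM in LACTB cells and 61.1, 62.3 and 62.2 FPKM in empty vector cells, a 1.99-fold rise. ATF4, the transcription factor whose mRNA is translated when eIF2 alpha is phosphorylated, rose 1.65-fold, and DDIT3 (CHOP), an ATF4 target gene, 2.23-fold (limma, adjusted p = 1.08e-05 for PPP1R15A, 6.57e-05 for ATF4 and 5.31e-05 for DDIT3). The kinases of this list were not called: EIF2AK2 (PKR) had a log2 fold change of -0.09 and EIF2AK3 (PERK) one of -0.07. Phosphorylation of eIF2 alpha is not measured by these libraries. A DNA element bound by C/EBP and ATF proteins, searched as TGATGNAA on both strands in the windows from 250 bases before to 50 bases after the RefSeq start, occurred in 0 of the 38 member windows and in 1003 of all 27305 windows (3.67%); these letters are absent from those windows, and nothing follows for other positions.

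The 13 subunits of eIF3, the scaffold on the small ribosomal subunit, moved in both directions: 3 rose, 1 fell and 9 were not called. The share called, 30.8%, was near the 32.0% of all tested genes. The median log2 fold change was 0.09, with a range of -0.19 to 0.20. EIF3M, a peripheral subunit (chromosome 11, 32583798 to 32606262), had 31.3, 32.2 and 31.5 FPKM in LACTB cells and 26.8, 27.0 and 28.6 FPKM in empty vector cells and rose 1.15-fold (log2 fold change 0.20, SE 0.041; limma, adjusted p = 0.010). EIF3D, the subunit that can itself bind the cap of some mRNAs, had 147.0, 150.2 and 143.3 FPKM in LACTB cells and 131.9, 131.2 and 132.1 FPKM in empty vector cells and rose 1.11-fold (limma, adjusted p = 0.0200). Both changes are small in size, and for both the LACTB libraries lie entirely above. EIF3L averaged 69.8 ± 1.26 FPKM in LACTB cells and 63.9 ± 1.47 FPKM in empty vector cells (SD, n = 3 each; limma, adjusted p = 0.0417), and 41.1% of its exon bases are shared with AL022311.1 on the same strand. EIF3B, a core subunit that holds the complex together, moved the other way: it had 58.1, 62.0 and 61.6 FPKM in LACTB cells and 69.3, 65.6 and 73.3 FPKM in empty vector cells and fell (log2 fold change -0.19; limma, adjusted p = 0.0300). EIF3A, the other large core subunit, had a log2 fold change of -0.03 and EIF3G, which binds RNA, one of 0.20 with overlap between the groups (limma, adjusted p = 0.658 for EIF3A and 0.0594 for EIF3G). Summed over the 13 subunits the LACTB libraries lay at 888 to 909 FPKM and the empty vector libraries at 846 to 875 FPKM.

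Of 10 tested eIF4 genes 1 rose and 5 fell, where 17.2% of all tested genes fell, with a median log2 fold change of -0.08. The number of falls depended on the scale. Expressed as TPM, where each library sums to the same total, EIF4E2 was still called lower. In that fit, which also tested more genes, EIF4A3, EIF4E, EIF4G1 and EIF4H were not called (limma, adjusted p = 0.0619 to 0.214). Their log2 fold changes stayed negative, at -0.12 to -0.19. EIF4A3 and EIF4H were also not called after quantile normalization. EIF4G1, the scaffold that joins the cap, the helicase and eIF3 (chromosome 3, 184314495 to 184335358), had 124.3, 125.5 and 129.9 FPKM in LACTB cells and 144.5, 148.7 and 145.9 FPKM in empty vector cells. It fell in LACTB cells (log2 fold change -0.21, SE 0.039; limma, adjusted p = 0.0071). EIF4G2 (DAP5), a relative of eIF4G that lacks the eIF4E-binding part, had 170.1, 163.6 and 160.5 FPKM in LACTB cells and 165.1, 168.5 and 166.4 FPKM in empty vector cells. EIF4G3, a full-length paralogue, had 15.6, 14.8 and 15.5 FPKM in LACTB cells and 14.2, 15.4 and 15.1 FPKM in empty vector cells. Both relatives overlapped between the groups and were not called. The ratios within the family did not overlap between the groups: EIF4G2 over EIF4G1 was 1.30 ± 0.067 in LACTB cells and 1.14 ± 0.0050 in empty vector cells, and EIF4G3 over EIF4G1 0.121 ± 0.0039 in LACTB cells and 0.102 ± 0.0032 in empty vector cells (SD, n = 3 each; exact permutation test, p = 0.1 each, the smallest possible; 0.143 adjusted).

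The cap-binding proteins themselves were low and lower still in LACTB cells. EIF4E2 (4EHP), which binds the cap without recruiting the ribosome (chromosome 2, 232550052 to 232583644), had 7.18, 6.76 and 7.13 FPKM in LACTB cells and 8.78, 8.89 and 9.30 FPKM in empty vector cells. It fell (log2 fold change -0.32, SE 0.045; limma, adjusted p = 0.0025), the smallest adjusted p among the falling members; 24.2% of its exon bases lie opposite another gene. EIF4E, the cap-binding subunit of eIF4F (chromosome 4, 98871684 to 98930637), had 5.29, 5.11 and 4.86 FPKM in LACTB cells and 5.71, 5.65 and 6.26 FPKM in empty vector cells, and fell by a margin close to the threshold (log2 fold change -0.18, SE 0.056; limma, adjusted p = 0.0491). The call for EIF4E was lost without any 1 of the 6 libraries (limma, adjusted p = 0.0636 to 0.142), and with its name-matched copies added (adjusted p = 0.179): those copies held 296% of its FPKM, led by EIF4EP2. The ratio of EIF4E2 to EIF4E was 1.38 ± 0.076 in LACTB cells and 1.53 ± 0.044 in empty vector cells, without overlap, and carries the same limit.

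Of the helicase and its helpers, EIF4H, which stimulates eIF4A, had 96.0, 95.3 and 99.8 FPKM in LACTB cells and 109.7, 105.7 and 114.8 FPKM in empty vector cells, and fell (log2 fold change -0.18; limma, adjusted p = 0.0222). EIF4A3, a relative of the helicase that belongs to the exon junction complex and not to eIF4F, had 29.5, 30.1 and 29.8 FPKM in LACTB cells and 32.9, 32.4 and 33.5 FPKM in empty vector cells, and fell (log2 fold change -0.14; limma, adjusted p = 0.0234). In both, each LACTB library was below each empty vector library. EIF4B, the other helper, had a log2 fold change of 0.01. EIF4A2 had 131.7, 121.8 and 120.1 FPKM in LACTB cells and 118.2, 118.3 and 130.1 FPKM in empty vector cells, with overlap. EIF4A1, the main helicase of eIF4F in many cell types, is listed at only 1.94, 1.55 and 1.98 FPKM in LACTB cells and 1.40, 1.10 and 0.96 FPKM in empty vector cells, from 92 to 189 reads per library, and it was called higher (log2 fold change 0.39, SE 0.107; limma, adjusted p = 0.0293). That row is uncertain as a measure of the gene: 48.6% of its exon bases are shared with other genes on the same strand, the readthrough gene SENP3-EIF4A1 among them, and name-matched copies hold 457% of its FPKM. Summed with those copies EIF4A1 was not called (log2 fold change 0.04; limma, adjusted p = 0.714), nor was it without LACTB replicate 1 or 3 or without empty vector replicate 2 or 3 (adjusted p = 0.0743 to 0.0932). The ratio of EIF4A2 to EIF4A1, 69.0 ± 8.9 in LACTB cells and 109 ± 26 in empty vector cells (SD, n = 3 each), carries the same limit.

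The 2 inhibitors of eIF4E among the members moved in opposite directions. A further gene of that family, EIF4EBP3, is outside the 47 genes. It averaged 0.081 FPKM in LACTB cells and 0.349 FPKM in empty vector cells and was not tested. EIF4EBP1 (4E-BP1, chromosome 8), a known ATF4 target gene, had 94.5, 117.9 and 124.0 FPKM in LACTB cells and 74.8, 72.0 and 81.6 FPKM in empty vector cells. It rose 1.47-fold, by the largest log2 fold change of the members (0.55, SE 0.103; limma, adjusted p = 0.0077), and LACTB replicate 1 was the lowest of its group. EIF4EBP2 (4E-BP2; chromosome 10, 70404379 to 70428618) had 12.1, 11.2 and 12.2 FPKM in LACTB cells and 14.9, 15.4 and 14.5 FPKM in empty vector cells, and fell (log2 fold change -0.31, SE 0.048; limma, adjusted p = 0.0033). The mRNA ratio of EIF4EBP1 to EIF4E was 17.9, 23.1 and 25.5 in LACTB cells and 13.1, 12.7 and 13.0 in empty vector cells. It carries the limit of the EIF4E row, whose name-matched copies held 296% of its FPKM and were left out of the ratio. The ratio of EIF4EBP1 to EIF4EBP2 was 7.83, 10.5 and 10.2 in LACTB cells and 5.03, 4.66 and 5.64 in empty vector cells. Neither ratio overlapped between the groups (log2 difference 0.76 for EIF4EBP1 over EIF4E and 0.89 for EIF4EBP1 over EIF4EBP2; exact permutation test, p = 0.1 each, the smallest possible; 0.143 adjusted over 10 ratios). The phosphorylation that sets the activity of both inhibitors was not measured.

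**Figure D2:**
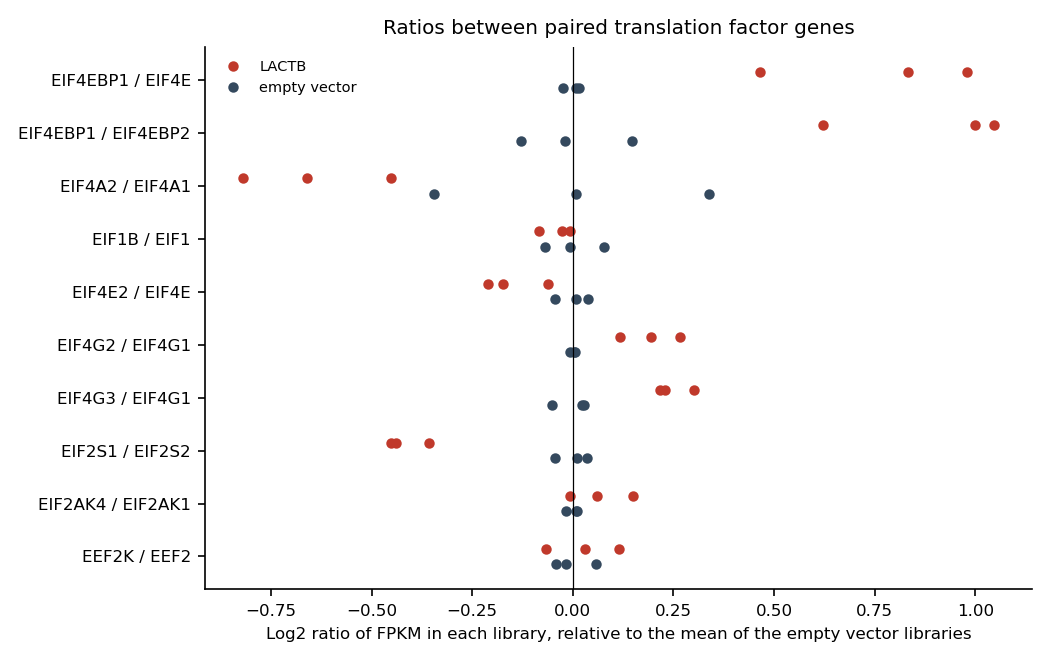
Log2 ratios of FPKM for 10 pairs of translation factors, 1 point a library, relative to the mean of the empty vector libraries (line at 0); in each row the LACTB points are drawn above the empty vector points. In 7 of the 10 pairs the groups do not overlap, with the widest gaps for EIF4EBP1 over EIF4EBP2 and EIF4EBP1 over EIF4E. Ratios to EIF4E and EIF4A1 leave out name-matched copies that held more FPKM than those rows.

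EIF5A, EIF5B and EIF6 were grouped as subunit joining and late steps. Of these 3 genes 1 fell and 0 rose, where 17.2% of all tested genes fell and 14.8% rose. EIF5A, the hypusine-bearing factor that relieves stalled ribosomes (chromosome 17, 7306999 to 7312463), had 163, 176 and 174 FPKM in LACTB cells and 201, 185 and 191 FPKM in empty vector cells. It fell (log2 fold change -0.17, SE 0.051; limma, adjusted p = 0.0416). EIF5B, which joins the ribosomal subunits, and EIF6, which keeps them apart, had log2 fold changes of -0.10 and -0.03 with overlap between the groups. EIF5A2, the second gene for eIF5A and outside the 47, moved the opposite way to EIF5A: it had 10.7, 10.4 and 9.81 FPKM in LACTB cells and 6.27, 7.08 and 6.90 FPKM in empty vector cells and rose 1.53-fold (limma, adjusted p = 0.0007). EIF5A was still the far more abundant of the pair per length, by the FPKM values in every library.

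Of the 5 tested elongation genes 4 rose, 0 fell and EEF1D did not pass, where 14.8% of all tested genes rose. The 5 had a median log2 fold change of 0.21. EIF5A, which relieves stalled ribosomes and fell, was counted with the late steps and not here. None of the 4 rises was called with no filter (limma, adjusted p = 0.0848 to 0.373) or with a replicate block (limma, adjusted p = 0.0597 to 0.0775). EEF1A1, which delivers tRNAs to the ribosome and is the most abundant member (chromosome 6, 73515750 to 73523797), had 1777, 1823 and 1787 FPKM in LACTB cells and 1556, 1553 and 1417 FPKM in empty vector cells. It rose 1.19-fold (limma, adjusted p = 0.0194; log2 fold change 0.25, SE 0.061), and empty vector replicate 3 was the lowest library. EEF2, the translocation factor (chromosome 19, 3976056 to 3985469), had 445, 471 and 478 FPKM in LACTB cells and 413, 402 and 375 FPKM in empty vector cells and rose 1.17-fold (log2 fold change 0.23, SE 0.055; limma, adjusted p = 0.0197). Both calls were lost without LACTB replicate 2 or without LACTB replicate 3 (limma, adjusted p = 0.0873 and 0.0677 for EEF1A1 and 0.0799 and 0.0735 for EEF2, in that order). EEF1B2, an exchange factor for eEF1A, had 225, 206 and 217 FPKM in LACTB cells and 183, 177 and 200 FPKM in empty vector cells and rose (log2 fold change 0.21; limma, adjusted p = 0.0333), with empty vector replicate 3 nearest to the LACTB libraries. EEF2K, the kinase that inhibits eEF2, averaged 3.95 ± 0.12 FPKM in LACTB cells and 3.32 ± 0.20 FPKM in empty vector cells (SD, n = 3 each) and rose as well (log2 fold change 0.20; limma, adjusted p = 0.0349). EEF2K over EEF2 overlapped between the groups, at 0.00852 in LACTB cells and 0.00836 in empty vector cells. EEF1D, another exchange subunit, had a log2 fold change of 0.03. EEF1G is listed at 0 in all 6 libraries and was not tested; 99.9% of its exon bases are shared on the same strand with AP002990.1, so its 0 is not a measure of the gene.

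**Figure D3:**
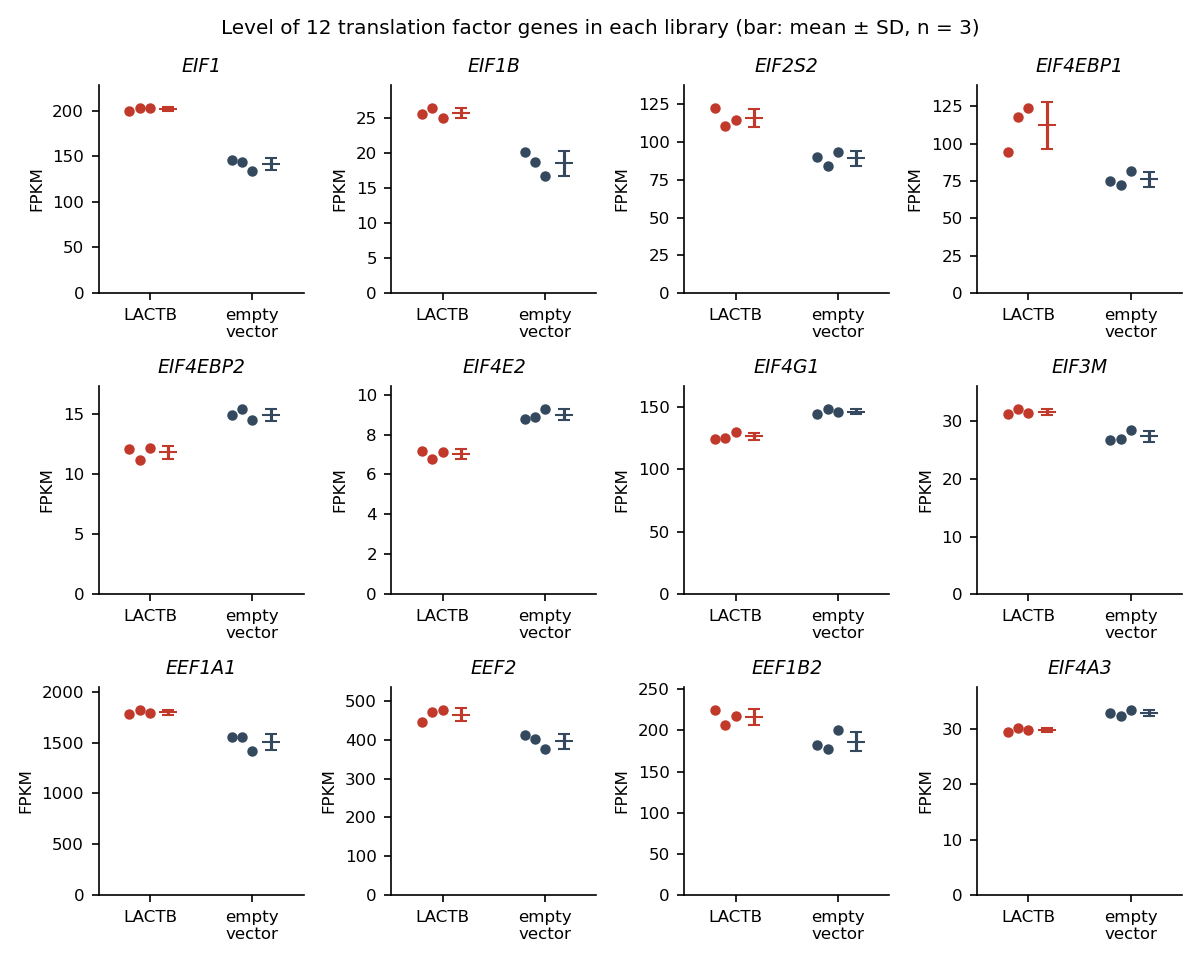
FPKM of 12 translation factors in each library, LACTB libraries left of empty vector libraries in each panel, with a bar for the group mean ± SD (n = 3); each axis starts at 0. EIF1, EIF2S2, EIF4EBP1 and the elongation factors are higher in all 3 LACTB libraries, and EIF4G1, EIF4E2 and EIF4EBP2 are lower in all 3.

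By level the members span from EEF1A1 to the low eIF4E, eIF2B and kinase genes: 14 of the 47 averaged at least 100 FPKM and 7 averaged under 10 FPKM. In sum they took 1.87%, 1.90% and 1.90% of all FPKM in LACTB cells and 1.64%, 1.65% and 1.75% in empty vector cells. EEF1A1 alone made up 35.2%, 35.5% and 35.0% of the members' FPKM in LACTB cells and 33.2%, 33.7% and 31.2% in empty vector cells. Without EEF1A1 the share was 1.21%, 1.22% and 1.23% in LACTB cells and 1.10%, 1.09% and 1.20% in empty vector cells. The LACTB libraries were thus above in both shares, and empty vector replicate 3 was nearest in both. A share also depends on the total it is divided by. Empty vector replicates 1, 2 and 3 totalled 285400, 279929 and 259456 FPKM, so replicate 3 had the smallest total. Undivided, the members summed to 5049 to 5134 FPKM in LACTB cells and 4537 to 4691 FPKM in empty vector cells. By that sum empty vector replicate 3 was the lowest library, and so the farthest from LACTB cells.

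**Figure D4:**
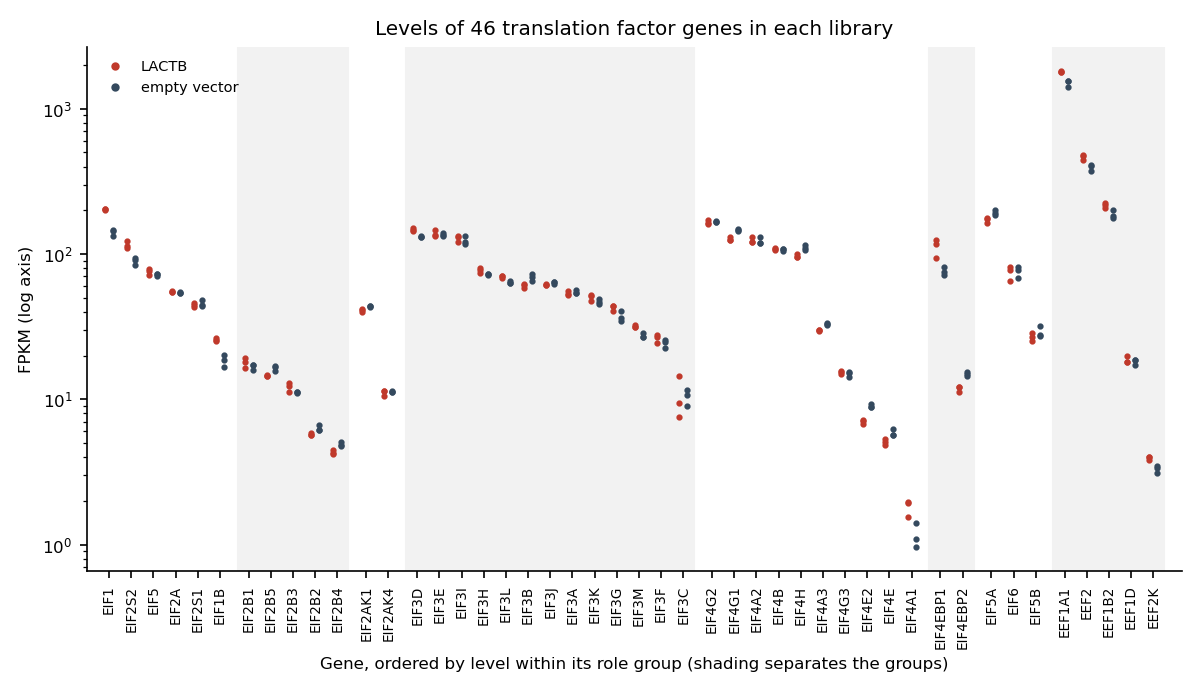
FPKM of the 46 translation factors above 0 in each library on a log axis, ordered by level within role groups that the shading separates, with LACTB points left of empty vector points. EEF1A1 stands highest, with a mean of 1796 FPKM in LACTB cells and 1509 FPKM in empty vector cells, and EIF4A1, EEF2K and EIF2B4 are among the lowest.

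The tract search at the RefSeq starts printed above was added after the values had been seen and is a description only. The tract was present in 9 of the 38 members with a window (23.7%) and in 1104 of all 27305 windows (4.04%). Among these windows it was found in 4 of 9 genes that rose (EEF1A1, EEF2, EIF3D and EIF3M), 0 of 9 that fell and 5 of 19 that were not called. EIF1 and EIF1B, which rose by more than these 4, have windows without it. Among the 8 members often listed as TOP genes, 7 were tested, 3 rose (42.9%) and 0 fell. Of all tested genes 14.8% rose and 17.2% fell. The 7 had a median log2 fold change of 0.11 and a positive value in 7 of 7. The median over all tested genes was -0.01. The calls of EEF1A1, EEF1B2 and EEF2 were each lost in some fits with one library left out. In such fits the values of EIF3E and EEF1D, both near 0, could change sign. The cytosolic ribosomal protein genes, the largest TOP class, gave 13 risen and 0 fallen of 83 tested. The share that rose, 15.7%, was near the 14.8% of all tested genes. As 0 fell, the share called was also 15.7%, against 32.0% of all tested genes, of which 17.2% fell. The 83 had a median of 0.09 and positive values in 67. Examples are RPL36A and RPL14, which rose 1.44-fold and 1.14-fold (limma, adjusted p = 0.0015 for RPL36A and 0.0244 for RPL14).

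Further genes of the pathway, from lists of known factors, mostly did not pass the test. Of each list 25.0% to 38.5% was called, near the 32.0% of all tested genes. By direction 25.0% to 30.8% rose and 0% to 7.69% fell, against 14.8% and 17.2% of all tested genes. Of 20 tested further initiation factors and partners, 5 rose and 1 fell. Beside EIF5A2 and EIF2S3, PDCD4, an inhibitor of eIF4A, had 6.41, 5.97 and 5.72 FPKM in LACTB cells and 4.90, 4.88 and 5.22 FPKM in empty vector cells and rose (limma, adjusted p = 0.0189). PAIP2, an inhibitor of the poly(A)-binding protein, fell to 15.7 ± 1.1 FPKM in LACTB cells, against 20.2 ± 1.3 FPKM in empty vector cells (limma, adjusted p = 0.0077). Of 8 further elongation and release factors 2 rose and 0 fell: SECISBP2, which binds the selenocysteine insertion element of selenoprotein mRNAs, and PELO, which rescues stalled ribosomes, rose to 8.61 ± 0.41 and 13.6 ± 0.73 FPKM in LACTB cells, against 7.39 ± 0.20 and 11.8 ± 0.25 FPKM in empty vector cells (limma, adjusted p = 0.0221 and 0.0248). Of 13 enzymes that modify the factors 4 rose and 0 fell, among them EEF1AKMT4, a lysine methyltransferase of eEF1A (1.74-fold), and DPH2 and DPH3, which build diphthamide on eEF2 (1.18-fold and 1.19-fold; limma, adjusted p = 0.0074, 0.0223 and 0.0227 for the 3 genes). Of 13 genes of mTORC1 and the eIF4 kinases 4 rose and 1 fell. DDIT4 (REDD1), an inhibitor of mTORC1, had 16.2, 20.7 and 19.2 FPKM in LACTB cells and 4.67, 4.36 and 4.50 FPKM in empty vector cells, a 4.15-fold rise. SESN2, which restrains mTORC1 when leucine is short, rose 4.23-fold (limma, adjusted p = 1.75e-05 for DDIT4 and 1.08e-05 for SESN2). MKNK2, a kinase of eIF4E, rose 1.30-fold, and RPS6KB1, the S6 kinase, fell to 7.60 ± 0.11 FPKM in LACTB cells, against 8.97 ± 0.77 FPKM in empty vector cells (limma, adjusted p = 0.0150 and 0.0363). MTOR itself had a log2 fold change of 0.06 and was not called.

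The calls differ in how far they rest on single libraries and on the scale. Of the 21 called members 8 were called with each library left out in turn: EIF1, EIF1B, EIF2S2, EIF3M and EIF4EBP1, which rose, and EIF4E2, EIF4G1 and EIF4EBP2, which fell. Of the others, EIF3L and EIF4E were lost without any 1 library, EIF2B5, EIF3B, EIF5A and EEF2K without any but empty vector replicate 2, EEF1B2 without any but empty vector replicate 3, EIF4A3 without empty vector replicate 1 or any LACTB library, EIF3D without empty vector replicate 1 or 2 or LACTB replicate 2, and EIF4H without empty vector replicate 1 or LACTB replicate 1 or 2. Their adjusted p values in those fits ranged from 0.0543 to 0.142 (limma), and all kept their direction. Expressed as TPM, a scale on which each library sums to the same total, 8 members rose and 2 fell, against 12 and 9 on the FPKM scale. A mean of at least 1 TPM let 16070 genes into that fit, against 11875, so the scale and the set of tested genes changed together. Of the 8 members just named, EIF4G1 and EIF3M were not called as TPM (limma, adjusted p = 0.0619 for EIF4G1 and 0.0592 for EIF3M), and the other 6 were. With quantile normalization 13 rose and 6 fell. Higher calls made up 57.1% of the members' calls as FPKM, 80.0% as TPM, where falls dropped more than rises, and 68.4% after quantile normalization. Over all called genes the same shares were 46.3% as FPKM, 55.5% as TPM and 48.6% after quantile normalization.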

How the data were processed

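RNA-seq of 6 MUM2B libraries was used, 3 of LACTB cells and 3 of empty vector cells, grouped by the labels. Per the labels' protocols, total RNA was taken with Trizol and NEBNext Ultra libraries were read as 150 bp pairs on a NovaSeq. The submitters' processing notes name GRCh38, DESeq2 1.16.1, featureCounts 1.5.0-p3 and HISAT2 2.0.5; the sources used here give neither their roles, the use of strand nor the handling of reads that match several places. The authors deposited FPKM per gene. Times the GENCODE 29 exon length, 100% of values gave whole reads (within 0.1 reads), which gave the depths.

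Members were found by symbol. The members, lists, named-gene rule and tests were chosen with earlier results of these data known. By that rule the text gives, library by library, up to 10 called members in each direction, the 3 most abundant, the pairs whose ratios do not overlap and the eIF2B subunits, and up to 3 genes in each direction of the other lists. Of the genes so named, 1 is not reported here. The test was limma 3.58.1 in R 4.3.3 (lmFit, eBayes with trend) on log2(FPKM + 1) for genes averaging 1 FPKM or more, with Benjamini-Hochberg adjustment; the script was tested on simulated data. Fold changes given as times are ratios of mean FPKM, and log2 fold changes understate changes of low genes. Ratios of 10 pairs were compared by a two-sided exact permutation test (scipy 1.17.1). Start windows came from RefSeq (GRCh38.p14) and gene coordinates from GENCODE 29. Figures were drawn with matplotlib 3.10.9.

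Alternatives covered the scale (TPM, median-of-ratios, quantile, a pseudocount of 0.1), the filter (none, or 5 FPKM), the variance model (without trend, robust), library weights, a replicate block, voom on the recovered reads, members summed with copies, a threshold of 0.01 and each library left out in turn.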

Additional observations from a re-analysis of the deposited data

How the results depend on the processing

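Of the 21 called members, EIF1, EIF1B, EIF2S2, EIF4EBP1, EIF4E2 and EIF4EBP2 passed in every alternative run on them. Members that rose and fell numbered 6 and 5 with no filter, 8 and 2 as TPM, and 4 and 3 at an adjusted p under 0.01 (limma throughout). With one library left out 6 to 9 members rose and 3 to 8 fell; over all genes 1132 to 1495 rose and 1392 to 1810 fell. The all-gene count of rises was 1155 at a mean of at least 5 FPKM and 847 at the stricter threshold; that of falls was 1295 as TPM and 1004 at the stricter threshold. By construction the stricter filter tested fewer genes; for the other settings the cause was not tested. The members' median log2 fold change was 0.056 with voom on the recovered reads, against 0.023 in the main fit. The median over all tested genes moved as well, to 0.021 with voom from -0.010 in the main fit. Median-of-ratios scaling could change nothing: its factors were 1.00, so the deposited values already stood on that scale. It is therefore no check of the results.

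The numbers did not pair the samples: deviations of same-numbered libraries correlated at -0.126, 0.0194 and -0.0438. The fit with a replicate block called 5 members higher and 3 lower, and 1155 genes higher and 1324 lower over all.

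Of the members that were not called, 4 passed in other settings. EIF3G was called higher in 5 of 17 (limma, adjusted p = 0.0058 to 0.0402). EIF2B4 was called lower in 3 of 16 (limma, adjusted p = 0.0405 to 0.0492). EIF3H was called higher with voom (limma, adjusted p = 0.0349), and EIF2AK1 lower with library weights (limma, adjusted p = 0.0435), in 1 of 17 each. Some members that were not called changed sign. EIF2AK4 stood at 0.0021 as TPM, 0.0029 with quantile normalization and 0.011 with voom; EIF4G2 at 0.0068, 0.022 and 0.016 under the same settings. EIF3A was at 0.0050 and EIF6 at 0.0018 with voom. With library weights EIF3C was at 0.13, EIF4B at -0.0023 and EIF6 at 0.026, and EIF3C summed with EIF3CL was at 0.33. EEF2K over EEF2 was at -0.029 as a ratio of FPKM + 1. With one library left out, EIF2AK4 spanned -0.039 to 0.013, EIF3C -0.27 to 0.16, EIF3E -0.028 to 0.040, EIF4A2 -0.014 to 0.072, EIF4B -0.0070 to 0.019, EIF4G2 -0.040 to 0.0015, EIF6 -0.10 to 0.059 and EEF1D -0.016 to 0.051.

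Depth limits the low members most: EIF4A1 rests on 92 to 189 reads a library. Reads of overlapping genes and of near-identical copies cannot be told apart here.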

Other observations

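Rows of processed pseudogenes and near-identical copies sit beside 19 of the 47 members, and their values belong in no comparison of single genes. EEF1A1P5 was listed at 301, 260 and 280 FPKM in LACTB cells and 228, 247 and 183 FPKM in empty vector cells. EEF1B2P3 and EIF2S2P4 were higher in LACTB cells as their parent genes were, at 25.8 ± 1.97 FPKM for EEF1B2P3 in LACTB cells and 19.8 ± 1.62 FPKM in empty vector cells, and at 16.1 ± 0.40 FPKM for EIF2S2P4 in LACTB cells and 12.1 ± 1.49 FPKM in empty vector cells (SD, n = 3 each; limma, adjusted p = 0.0105 for both). Copies of EIF3F, led by EIF3FP3, held 63.9% of the FPKM of EIF3F. Reads of a parent gene and of its copy can be counted on either row, and which one they came from was not tested.

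EIF3C, a core subunit of eIF3, and its near-identical copy EIF3CL varied between libraries of one group. EIF3C stood at 7.56, 14.5 and 9.47 FPKM in LACTB cells and 11.6, 10.8 and 8.97 FPKM in empty vector cells. EIF3CL stood at 1.54, 1.97 and 21.2 FPKM in LACTB cells and 1.31, 1.89 and 4.67 FPKM in empty vector cells, so LACTB replicate 3 held more than any other library. The summed pair was not called (log2 fold change 0.33; limma, adjusted p = 0.516).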
